A study of Mus musculus with 18 samples.

Results

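The 38 genes described here are transcripts of the oxygen-sensing system, its known targets and the glycolytic pathway. They form a fixed list of gene symbols that was chosen with earlier results of these data known. They were measured in MC38 tumours, a mouse colon carcinoma line grown under the skin of the flank of C57BL/6-Ly5.1 mice aged 6 to 12 weeks. Of the 38 genes, 34 had a probe set on the array that was assigned to 1 gene symbol, out of 18193 genes with such a probe set, and the brightest of these sets stood for the gene. They comprised 11 of the 14 listed glycolytic enzymes, all 5 regulators and transporters, all 3 genes of oxygen sensing and 15 of the 16 other targets of hypoxia-inducible factor (HIF). Eno1 and Gpi1 had no probe set listed under those names here, all 3 sets of Bnip3l were shared with another gene, and Gapdh had only control sets and sets shared with other genes.

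Each of the 18 arrays held RNA of a piece of 1 whole tumour, taken on day 22 after inoculation of the same MC38 cells. The control group (n = 5) had received the vehicle MCT and a control IgG. The anti-CD40 Ab group (n = 4) had received vehicle and CD40 mIgG1, an antibody that activates CD40 on antigen-presenting cells. The MEKi group (n = 5) had received the MEK inhibitor GDC-0623 at 30 mg/kg every day with the control IgG, and the MEKi/CD40 Ab group (n = 4) GDC-0623 with CD40 mIgG1. Antibodies were given on treatment days 3, 5 and 7 and again 1 day before the analysis. The tumours grew under the skin and not in the colon, and each piece also held host cells.

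HIF is a transcription factor whose alpha subunit is hydroxylated by oxygen-dependent prolyl hydroxylases and then degraded through the von Hippel-Lindau protein. When oxygen is scarce the subunit persists, pairs with its beta partner and binds short DNA elements near genes for glucose uptake, glycolysis, pH control, vessel growth and collagen modification. The prolyl hydroxylases Egln1 and Egln3 are themselves targets, and many solid tumours carry this programme in poorly perfused areas. Because HIF-alpha is mainly controlled as a protein, the transcript of Hif1a does not report its activity, and no protein or oxygen level was measured on these arrays.

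The values are deposited log2 expression values, in which a step of 1 is a factor of 2. Arrays of 1 group correlated at 0.987 to 0.998 over all probe sets. Markers of other cells differed between the groups: 11 of 12 fibroblast markers rose in MEKi/CD40 Ab tumours, with a summed level of 17.22 to 17.40 against 15.83 to 16.33 in controls, and all 9 proliferation markers measured fell (summed level 12.92 to 13.74 against 14.53 to 14.95). Of 11 macrophage markers, 6 fell and 0 rose with MEKi, at a median of -0.77 and with all 11 differences below 0, and their summed level was 15.37 to 16.16 against 16.23 to 16.61 in controls, without overlap. With MEKi/CD40 Ab 1 of the 11 fell, and the summed level, 15.90 to 16.73, overlapped that of controls. The adipocyte marker score, a mean of log2 values, was highest in MEKi/CD40 Ab tumours 2 (10.81) and 4 (7.02) and in anti-CD40 Ab tumour 3 (6.11), and MEKi/CD40 Ab tumour 4 also had a skeletal muscle score of 6.84 where all others lay at 2.39 to 2.82. Of the epithelial markers, Krt8 and Cldn7 stood at the lowest value of the table, 2.16, on all 18 arrays, and of the 6 on the list only Cdh1 was well above it. In whole tissue, fewer cells of a type and less RNA per cell cannot be told apart.

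MEK inhibition alone was accompanied by higher levels of many HIF targets, and none of the 34 genes passed the test as lower. In MEKi against control, 13 of 34 genes rose and 0 fell at an adjusted p under 0.05 by limma's moderated test, where 7.83% of all probe sets were called, 3.99% higher and 3.83% lower. The 13 were 8 of the 15 other HIF targets (Car9, P4ha2, Adm, Ero1a, Ndrg1, Higd1a, Bnip3 and Ankrd37), the oxygen sensor Egln1 and the 4 glycolytic enzymes Pfkp, Hk1, Aldoa and Pgk1. The median log2 difference was 0.52 over the 34 genes and 0.00 over all probe sets. Among the 10012 genes that averaged above 5 on the arrays, a level that most of the 34 exceed, 10.5% were higher, 8.99% were lower and the median was -0.01. Leaving out 1 array gave 7 (control tumour 3) to 22 (MEKi tumour 4) calls, all higher. Of all 45037 sets, 1035 were higher and 784 lower without control tumour 3. Without MEKi tumour 4, 1648 were higher and 1678 lower. The fall of 6 of 11 macrophage markers and the rise of 6 of 12 fibroblast markers occurred in the same comparison, and their part in these differences was not tested. With the filter on low values, 23 genes were called higher and Pfkfb4 lower (-0.89, adjusted p = 0.0135). That filter also called 2868 of the 18653 sets it kept higher and 3147 lower.

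With both agents, genes of the list were called in both directions. In MEKi/CD40 Ab against control, 7 of 34 genes rose and 3 fell, where 14.9% of all probe sets were called, 5.5% higher and 9.37% lower. The 7 that rose were Car9, P4ha2, Ero1a, Pfkp, Higd1a, Hif1a and Aldoa, and the 3 that fell were Ankrd37, Ddit4 and Pfkfb4. The median log2 difference was 0.16 over the 34 genes, against -0.05 over the genes averaging above 5, of which 12.3% were higher and 21.5% lower. The 10 calls were 29.4% of the 34, no more than these shares together. The falls alone were less frequent than among those genes. When the 3 arrays highest for adipocyte markers were left out, 4 of these 10 calls were left, Car9, P4ha2, Hif1a and Ddit4. That setting removes MEKi/CD40 Ab tumours 2 and 4 and leaves tumours 1 and 3 against the 5 controls. Over all 45037 sets it called 1268 higher and 2171 lower, against 2479 and 4219 with all arrays. Whether the lost calls reflect adipocytes or the smaller group was not tested. With the adipocyte score added to the model, an alternative chosen after seeing the data, Car9, P4ha2 and Ddit4 were called. The 2 comparisons use the same 5 control tumours.

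**Figure D1:**
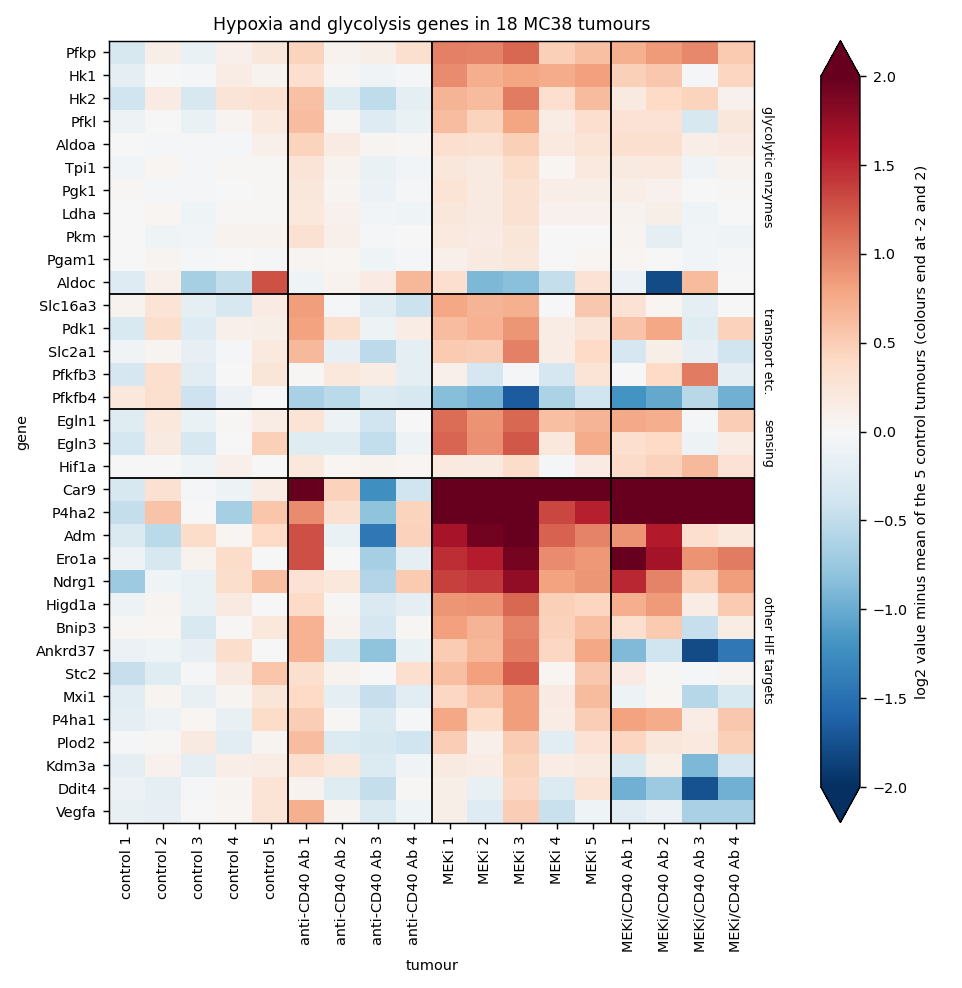
Log2 value of each of the 34 genes in each of the 18 tumours minus the mean of the 5 control tumours, with genes in rows grouped by role and tumours in columns grouped by treatment; colours end at -2 and 2. Car9 and P4ha2 are red in all 9 tumours that received MEKi, while Ankrd37 and Ddit4 are blue in all 4 MEKi/CD40 Ab tumours.

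Car9 encodes carbonic anhydrase IX, a membrane enzyme of pH control that is widely used as a hypoxia marker. Its values were 6.89, 7.51, 7.17, 7.10 and 7.36 in the 5 control tumours. They were 11.58, 11.43, 11.65, 10.36 and 10.09 in the 5 MEKi tumours. They were 10.80, 11.49, 9.35 and 9.88 in the 4 MEKi/CD40 Ab tumours. All 9 treated tumours lay above all 5 controls. The log2 difference was 3.82 ± 0.34 (SE) for MEKi (14.1-fold, adjusted p = 0.00279) and 3.17 ± 0.42 for MEKi/CD40 Ab (9.03-fold, adjusted p = 0.00358).

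P4ha2 encodes a catalytic subunit of the prolyl hydroxylase that matures collagen. The controls measured 10.26, 11.30, 10.74, 10.07 and 11.29, the MEKi tumours 13.45, 12.84, 13.39, 12.07 and 12.29, and the MEKi/CD40 Ab tumours 13.51, 13.67, 12.78 and 13.02. Every tumour given MEKi exceeded every control. The rise was 2.08 ± 0.37 with MEKi (4.22-fold, adjusted p = 0.0163) and 2.51 ± 0.33 with MEKi/CD40 Ab (5.71-fold, adjusted p = 0.00344). The related subunit P4ha1 was 0.52 and 0.56 higher and the lysyl hydroxylase Plod2, which also acts on collagen, 0.24 and 0.33, and none of these 4 differences passed (adjusted p = 0.0855, 0.0658, 0.455 and 0.0508). The 12 fibroblast markers, 6 of which rose with MEKi and 11 with MEKi/CD40 Ab, moved in the same comparisons as the collagen-modifying genes, and their part in these differences was not tested.

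Ero1a encodes an oxidase that forms disulphide bonds in the endoplasmic reticulum. Its brightest probe set measured 11.64, 11.41, 11.81, 12.10 and 11.73 in controls, 13.22, 13.31, 13.65, 12.68 and 12.60 with MEKi and 13.88, 13.40, 12.64 and 12.78 with MEKi/CD40 Ab, with no overlap between either treated group and the controls. The difference was 1.35 ± 0.22 with MEKi (adjusted p = 0.013) and 1.44 ± 0.28 with MEKi/CD40 Ab (adjusted p = 0.0136). The other 2 probe sets of Ero1a gave 1.12 and 1.24 with MEKi, both past the threshold (adjusted p = 0.0174 and 0.0336), but only 0.34 and 0.21 with MEKi/CD40 Ab (adjusted p = 0.513 and 0.775). The rise of Ero1a with MEKi was therefore seen by all 3 sets and that with MEKi/CD40 Ab by 1 of 3, whose call was lost when the 3 arrays highest for adipocyte markers were left out (1.52, adjusted p = 0.0747).

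The next 4 HIF targets rose with MEKi and were measured at lower differences with MEKi/CD40 Ab. Adm, the vasodilator peptide adrenomedullin, stood at 9.03, 8.78, 9.69, 9.36 and 9.72 in controls, at 10.97, 11.24, 12.23, 10.50 and 10.31 with MEKi and at 10.22, 10.90, 9.65 and 9.53 with MEKi/CD40 Ab. All MEKi tumours were above all controls, while the MEKi/CD40 Ab group overlapped both. The log2 difference of Adm was 1.73 ± 0.38 with MEKi (adjusted p = 0.0302) and 0.76 ± 0.34 with MEKi/CD40 Ab (adjusted p = 0.22). Ndrg1, a stress-responsive gene, rose by 1.25 with MEKi (adjusted p = 0.0355) and differed by 0.95 with MEKi/CD40 Ab (adjusted p = 0.093). Bnip3, which promotes removal of mitochondria, rose by 0.71 with MEKi (adjusted p = 0.0148), and its difference with MEKi/CD40 Ab was 0.14 (adjusted p = 0.836). The mitochondrial protein gene Higd1a rose in both, by 0.77 (adjusted p = 0.0206) and 0.57 (adjusted p = 0.0405). Leaving out 1 array ended the call of Adm in 6 of 10 cases, of Ndrg1 in 7 of 10, and of Higd1a in 3 of 10 with MEKi and 8 of 9 with MEKi/CD40 Ab.

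**Figure D2:**
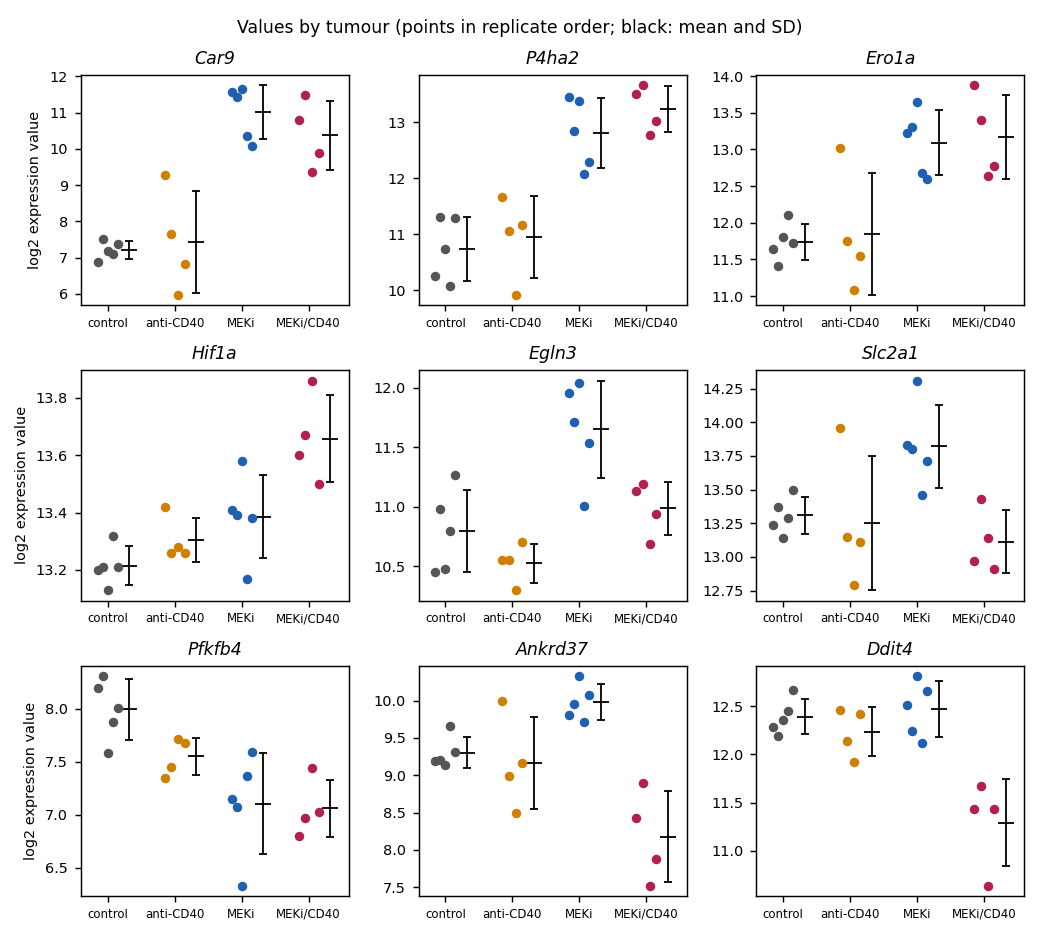
Log2 expression value (vertical axis) of 9 genes in each tumour, by treatment group (horizontal axis), with the mean and SD in black. Car9, P4ha2 and Ero1a are high in both groups given MEKi, Egln3 and Slc2a1 have their highest mean in MEKi tumours, and Ankrd37 and Ddit4 their lowest mean in MEKi/CD40 Ab tumours.

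Ankrd37, an ankyrin-repeat gene induced by HIF, differed from control in opposite directions in the 2 MEKi groups. Control tumours measured 9.19, 9.21, 9.14, 9.66 and 9.31, MEKi tumours 9.81, 9.96, 10.33, 9.71 and 10.08, anti-CD40 Ab tumours 9.99, 8.99, 8.50 and 9.17, and MEKi/CD40 Ab tumours 8.42, 8.90, 7.52 and 7.87. The MEKi tumours were all above the controls and the MEKi/CD40 Ab tumours all below them, while the latter overlapped the anti-CD40 Ab group. The log2 difference from control was 0.68 ± 0.14 with MEKi (adjusted p = 0.0262) and -1.12 ± 0.28 with MEKi/CD40 Ab (adjusted p = 0.0356). Between the MEKi/CD40 Ab and MEKi groups it was -1.80 ± 0.29 (adjusted p = 0.0321), and Ankrd37 was the only 1 of the 34 genes called in that comparison, where 2.5% of all probe sets were called and 1.77% were lower. This call is 2.94% of the 34, near the 3.35% of genes averaging above 5 that were lower. Ankrd37 has 1 probe set on this array. The fall against control lost its call in 8 of 9 cases when 1 array was left out, that without MEKi/CD40 Ab tumour 4, the one with muscle transcripts, among them (-1.02, adjusted p = 0.0947), and also when the 3 arrays highest for adipocyte markers were left out (-1.33, adjusted p = 0.0513). The difference from MEKi lost its call in 7 of 9 cases, with values from -2.04 to -1.58, and the rise with MEKi in 5 of 10, with values from 0.59 to 0.77, and also in the 4-group model (adjusted p = 0.163).

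Ddit4 (REDD1), a stress-induced inhibitor of mTORC1 signalling, fell with MEKi/CD40 Ab. It stood at 12.28, 12.19, 12.36, 12.45 and 12.67 in controls, at 12.51, 12.24, 12.81, 12.12 and 12.66 with MEKi, at 12.46, 12.14, 11.92 and 12.42 with anti-CD40 Ab and at 11.43, 11.67, 10.64 and 11.43 with both. The 4 tumours given both agents lay below every other tumour of the study. The difference of Ddit4 from control was -1.10 ± 0.21 (2.14-fold lower, adjusted p = 0.0141), and MEKi alone differed by 0.08 (adjusted p = 0.954). The call against control held when any 1 array was left out, when the 3 arrays highest for adipocyte markers were left out, and with the adipocyte score in the model (-1.33, adjusted p = 0.0368). It was lost with a replicate block, and with the number series of the sample titles, described below, as a block or limited to the low series. Against MEKi the difference was -1.18 (adjusted p = 0.0543).

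The interaction term, which asks whether the effect of anti-CD40 Ab differs with and without MEKi, was called for 1 of the 34 genes, and 2.64% of all probe sets were called, 1.58% lower. This is 2.94% of the 34, near the 2.69% of genes averaging above 5 that were lower. The called gene was Ankrd37, at -1.66 ± 0.41 (adjusted p = 0.0462). Ddit4 followed at -1.02 ± 0.28 (adjusted p = 0.0709). The Ankrd37 call was lost in 16 of 18 cases when 1 array was left out, with values from -1.90 to -1.39. Mxi1, a MYC antagonist, Kdm3a, a histone demethylase, and the secreted glycoprotein gene Stc2 showed interaction values of -0.63, -0.62 and -0.77 that did not pass (adjusted p = 0.229, 0.21 and 0.224). All 5 of these genes had a lower mean in MEKi/CD40 Ab than in MEKi tumours, as did 28 of the 34 genes, at a median of -0.25 against -0.06 over the genes averaging above 5.

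Sequences before a start site are shown for Car9 and P4ha2, which rose most, and for Ankrd37 and Ddit4, the HIF targets that fell with both agents, to set genes of opposite direction side by side. These 4 were chosen after their values were seen. The letters searched were ACGTG, the core of the hypoxia response element, on both strands (CACGT on the opposite one), in capitals below. The sequences are the 250 bases before the start, 5′ to 3′ on the gene's strand, from RefSeq on GRCm38.p6. They lie at chr4:43506776-43507025, plus strand for Car9, at chr11:54100674-54100923, plus strand for P4ha2, at chr8:45999851-46000100, minus strand for Ankrd37 and at chr10:59951771-59952020, minus strand for Ddit4.
Car9: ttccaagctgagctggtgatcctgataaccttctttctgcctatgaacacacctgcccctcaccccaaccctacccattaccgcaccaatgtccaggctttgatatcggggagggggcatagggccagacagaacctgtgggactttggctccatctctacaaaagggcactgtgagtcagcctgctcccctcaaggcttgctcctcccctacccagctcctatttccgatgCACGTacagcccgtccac
P4ha2: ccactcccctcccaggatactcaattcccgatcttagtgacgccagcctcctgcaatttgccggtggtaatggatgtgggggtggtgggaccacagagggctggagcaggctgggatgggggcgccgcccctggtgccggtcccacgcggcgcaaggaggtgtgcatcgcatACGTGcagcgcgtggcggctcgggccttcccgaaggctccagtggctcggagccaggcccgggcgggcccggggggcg
Ankrd37: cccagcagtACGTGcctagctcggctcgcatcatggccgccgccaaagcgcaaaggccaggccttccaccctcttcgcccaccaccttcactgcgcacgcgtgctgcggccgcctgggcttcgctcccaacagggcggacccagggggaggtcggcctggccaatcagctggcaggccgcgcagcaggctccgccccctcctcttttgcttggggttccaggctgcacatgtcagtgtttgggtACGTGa
Ddit4: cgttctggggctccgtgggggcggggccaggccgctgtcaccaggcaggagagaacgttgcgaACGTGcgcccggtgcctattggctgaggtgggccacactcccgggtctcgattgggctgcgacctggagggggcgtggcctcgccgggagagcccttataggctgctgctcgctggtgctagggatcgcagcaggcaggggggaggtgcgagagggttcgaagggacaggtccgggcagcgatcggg

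The start used for Ankrd37 is that of the promoter table and lies inside the annotated gene, which reaches base 46000414 of chromosome 8, so its window is not upstream of the whole gene. The other 3 windows end just before the annotated gene. In Car9 the match lies on the opposite strand, 18 to 14 bases before the start, and in P4ha2 it lies 78 to 74 bases before it. Ankrd37 has matches 241 to 237 and 6 to 2 bases before the start, and Ddit4 has 1 match 187 to 183 bases before it. Of the genes shown, those that rose and those that fell with MEKi/CD40 Ab carried the same letters in these windows. Pfkfb4, which fell, and Pfkp, which rose, had no ACGTG in the longer windows described next. In windows of 300 bases from 250 before to 50 after a start, ACGTG on either strand was present in 28 of 50 windows of 35 listed genes (56%) and in 19.6% of all 32851 windows. The related letters GCGTG, searched on both strands without removing overlaps with ACGTG, were present in 56% and 32.4%. HIF targets are known through such elements, so these shares describe the list and are no test of it. Plod2, Ndrg1 and Bnip3l have no window in the table used.

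The oxygen-sensing genes differed from each other. Hif1a encodes the inducible alpha subunit itself, and its values were 13.20, 13.21, 13.13, 13.32 and 13.21 in controls, 13.41, 13.39, 13.58, 13.17 and 13.38 with MEKi and 13.60, 13.67, 13.86 and 13.50 with MEKi/CD40 Ab. The MEKi/CD40 Ab tumours lay above all controls and above all anti-CD40 Ab tumours. Hif1a rose by 0.44 ± 0.07 with MEKi/CD40 Ab (1.36-fold, adjusted p = 0.00772), and with MEKi the difference was 0.17 (adjusted p = 0.203). Of the 4 probe sets of Hif1a, another gave 0.75 (adjusted p = 0.0163) and a dim one 0.33 (adjusted p = 0.601), and the last is not given here. The Hif1a call with MEKi/CD40 Ab was lost with the mean of the gene's sets and with the adipocyte score in the model. It was also lost with a replicate block and in the low number series alone, described below.

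Egln1, the main prolyl hydroxylase that marks HIF-alpha for degradation, measured 10.46, 10.90, 10.56, 10.72 and 10.84 in controls, 11.82, 11.60, 11.85, 11.29 and 11.38 with MEKi and 11.46, 11.42, 10.65 and 11.19 with MEKi/CD40 Ab. It rose by 0.89 ± 0.14 with MEKi (adjusted p = 0.0109), whereas the MEKi/CD40 Ab group overlapped the controls and differed by 0.48 (adjusted p = 0.144). The second probe set of Egln1 gave 0.81 and 0.36. Egln3, a hydroxylase that is itself sharply induced by hypoxia, stood at 10.45, 10.98, 10.48, 10.80 and 11.27 in controls and at 11.96, 11.71, 12.04, 11.01 and 11.54 with MEKi. These groups overlapped in 1 MEKi tumour. The difference of Egln3 was 0.86 ± 0.23 (adjusted p = 0.0631) by the brightest set and 1.07 (adjusted p = 0.0471) by the other, and 0.19 (adjusted p = 0.684) with MEKi/CD40 Ab.

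The glycolytic enzymes moved by less than the other members. With MEKi, 4 of 11 rose, 0 fell and the median log2 difference was 0.21, against 0.54 over the other 23 genes. With MEKi/CD40 Ab, 2 of 11 rose (Pfkp and Aldoa), 0 fell and the median was 0.09, against 0.32 over the other 23. The 18.2% called with MEKi/CD40 Ab is near the 14.9% of all probe sets, and the 36.4% called with MEKi compares with 7.83%. Among the genes averaging above 5, more were called. There 12.3% were higher and 21.5% lower with MEKi/CD40 Ab, and 10.5% higher and 8.99% lower with MEKi. The sets of Aldoa, Tpi1, Pgk1, Pgam1, Pkm and Ldha averaged 13.84 to 14.71 in controls on a scale that ended at 16.34, and whether bright signals understate differences was not tested.

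Hk1 and Hk2 encode hexokinases, which trap glucose in the cell. Hk1 measured 10.53, 10.74, 10.70, 10.87 and 10.79 in controls, 11.67, 11.46, 11.52, 11.47 and 11.54 with MEKi and 11.20, 11.27, 10.71 and 11.15 with MEKi/CD40 Ab. The MEKi tumours were tightly grouped and above all tumours of both other groups. Hk1 rose by 0.81 ± 0.07 with MEKi (1.75-fold, adjusted p = 0.00234) and differed by 0.36 (adjusted p = 0.114) with MEKi/CD40 Ab, where its second probe set gave -0.29 (adjusted p = 0.601). Hk2 was 0.66 ± 0.18 higher with MEKi (adjusted p = 0.0631) and 0.28 higher with MEKi/CD40 Ab (adjusted p = 0.474). All MEKi tumours nevertheless exceeded the controls in Hk2, the lowest at 11.84 against a highest control of 11.81.

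Pfkp and Pfkl encode subunits of phosphofructokinase, the committed step of glycolysis. Pfkp stood at 9.48, 9.93, 9.68, 9.91 and 10.03 in controls, at 10.81, 10.80, 10.95, 10.29 and 10.41 with MEKi and at 10.51, 10.66, 10.76 and 10.33 with MEKi/CD40 Ab, and both treated groups lay above all controls. It rose by 0.85 ± 0.16 (adjusted p = 0.019) and 0.76 ± 0.14 (adjusted p = 0.0106). Another of the 3 sets of Pfkp gave 0.87 with MEKi (adjusted p = 0.0254) and 0.33 with MEKi/CD40 Ab (adjusted p = 0.123). Pfkl, the liver-type subunit, differed by 0.47 and 0.12 and passed in neither comparison.

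Of the lower steps, the aldolase Aldoa rose by 0.32 with MEKi (1.24-fold, adjusted p = 0.0136) and by 0.23 with MEKi/CD40 Ab (1.18-fold, adjusted p = 0.0215). Aldoa has only probe sets of a type that can bind related transcripts, and its call with MEKi/CD40 Ab was lost in 6 of 9 cases when 1 array was left out. Pgk1, phosphoglycerate kinase, measured 14.26, 14.19, 14.21, 14.24 and 14.25 in controls and 14.50, 14.41, 14.53, 14.36 and 14.35 with MEKi. These groups did not overlap, and Pgk1 rose by 0.20 ± 0.04 (1.15-fold, adjusted p = 0.0198). With MEKi/CD40 Ab it differed by 0.06 (adjusted p = 0.336).

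Ldha, which regenerates NAD+ by making lactate, measured 14.19, 14.24, 14.12, 14.23 and 14.23 in controls, 14.43, 14.38, 14.50, 14.29 and 14.29 with MEKi and 14.28, 14.32, 14.12 and 14.21 with MEKi/CD40 Ab. The MEKi tumours were all above the controls, yet the difference of 0.18 ± 0.05 did not pass (adjusted p = 0.0523), and with MEKi/CD40 Ab it was 0.03 (adjusted p = 0.83). The isomerase Tpi1, the mutase Pgam1 and the pyruvate kinase Pkm differed from control by 0.21, 0.11 and 0.12 with MEKi and by 0.09, -0.01 and -0.07 with MEKi/CD40 Ab, and none passed. Aldoc was the dimmest enzyme and varied most between tumours of a group, from 3.36 to 5.78 with MEKi/CD40 Ab. The 3 control probe sets of Gapdh, which entered no test, averaged 14.80 to 15.05 in controls, 14.92 to 15.14 with MEKi and 14.81 to 15.01 with MEKi/CD40 Ab.

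**Figure D3:**
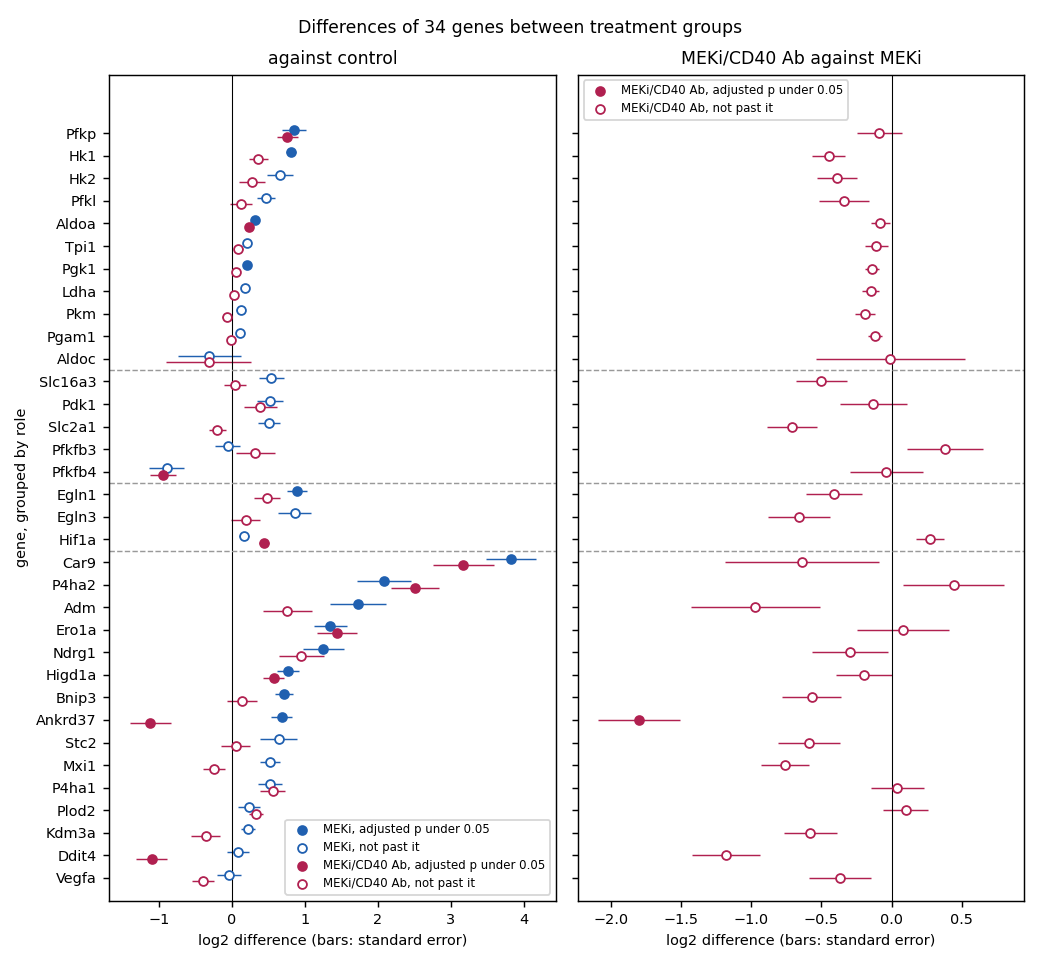
Log2 differences (horizontal axis, bars are standard errors) of the 34 genes (vertical axis, grouped by role) for MEKi and MEKi/CD40 Ab against control on the left and MEKi/CD40 Ab against MEKi on the right; filled points passed an adjusted p under 0.05. On the left the enzymes reach at most 0.85 and the other HIF targets spread from -1.12 to 3.82, and on the right Ankrd37, at -1.80, is the 1 filled point.

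Among regulators and transporters, Pfkfb4 fell with MEKi/CD40 Ab. This enzyme makes and breaks down the fructose bisphosphate that activates phosphofructokinase. Its values were 8.20, 8.31, 7.58, 7.88 and 8.01 in controls, 7.35, 7.45, 7.72 and 7.68 with anti-CD40 Ab, 7.15, 7.07, 6.33, 7.37 and 7.59 with MEKi and 6.80, 6.97, 7.44 and 7.03 with both. The tumours given both agents lay below all controls, and 1 MEKi tumour overlapped them. Pfkfb4 fell by 0.94 ± 0.18 on the log2 scale with MEKi/CD40 Ab (1.91-fold lower, adjusted p = 0.0145), and with MEKi the difference was -0.89 ± 0.24 (adjusted p = 0.0616). Its lowest value of all, 6.33, was that of MEKi tumour 3. The call with MEKi/CD40 Ab was lost when the 3 arrays highest for adipocyte markers were left out (-0.88, adjusted p = 0.13). Pfkfb3, an isoform, differed by -0.06 and 0.32 (adjusted p = 1 and 0.601).

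Slc2a1 encodes the glucose transporter GLUT1. It measured 13.24, 13.37, 13.14, 13.29 and 13.50 in controls, 13.83, 13.80, 14.31, 13.46 and 13.71 with MEKi and 12.97, 13.43, 13.14 and 12.91 with MEKi/CD40 Ab. Tumours given both agents lay below all MEKi tumours and overlapped the controls. The difference of Slc2a1 was 0.51 ± 0.15 with MEKi (adjusted p = 0.0732) and -0.20 ± 0.12 with MEKi/CD40 Ab (adjusted p = 0.429). Between these 2 groups it was -0.71 ± 0.18 (adjusted p = 0.0935), and the other 2 probe sets gave the same signs. The lactate exporter gene Slc16a3 and Pdk1, which restrains pyruvate entry into mitochondria, differed by 0.54 and 0.52 with MEKi and by 0.04 and 0.39 with MEKi/CD40 Ab, without passing.

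Vegfa, the principal vessel growth factor induced by hypoxia, passed in no comparison by its brightest set. Its values were 11.02, 11.00, 11.16, 11.20 and 11.43 in controls, 11.28, 10.90, 11.65, 10.72 and 11.07 with MEKi and 10.95, 11.05, 10.52 and 10.51 with MEKi/CD40 Ab, and the groups overlapped. The difference was -0.04 ± 0.17 with MEKi (adjusted p = 1) and -0.40 ± 0.15 with MEKi/CD40 Ab (adjusted p = 0.129). A dimmer probe set of Vegfa gave -0.97 with MEKi/CD40 Ab (adjusted p = 0.0175). Mxi1 behaved likewise, at -0.24 (adjusted p = 0.431) by its brightest set and -0.79 (adjusted p = 0.018) by the other.

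**Figure D4:**
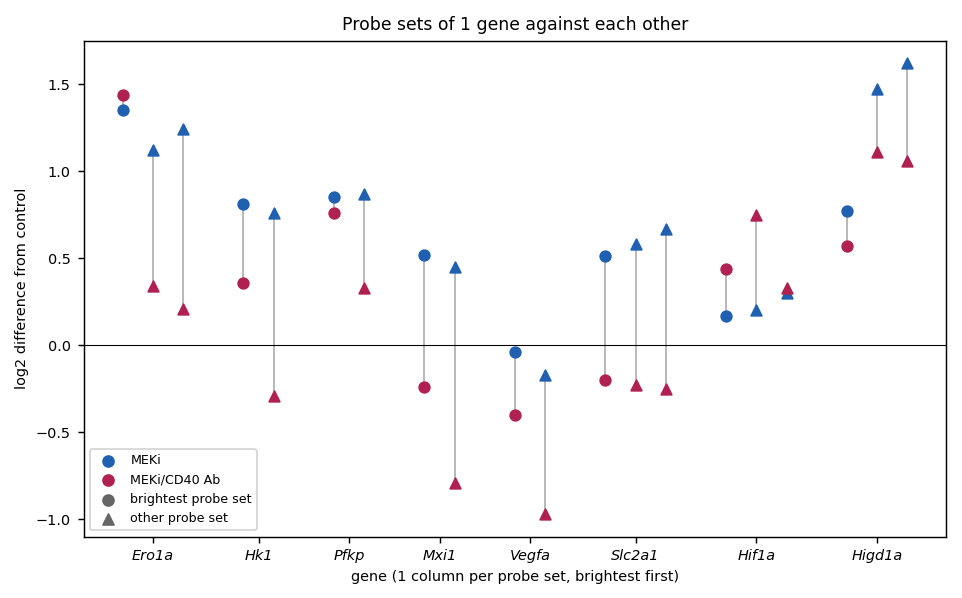
Log2 difference from control (vertical axis) by each probe set averaging above 5 of 8 genes (horizontal axis, brightest set first), for MEKi and MEKi/CD40 Ab; the genes were chosen after their values were seen. The sets give like values for MEKi in Ero1a, Hk1 and Pfkp, and for MEKi/CD40 Ab the brightest set of each is the highest.

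With anti-CD40 Ab alone, 0 of the 34 genes were called by limma's test, where 0% of all probe sets were called. Without adjustment, 2423 of 45037 probe sets passed 0.05, and of the 34 genes only Pfkfb4 did (-0.45, adjusted p = 0.827 by limma). The group was wide: Car9 measured 9.27, 7.66, 5.98 and 6.81 in its 4 tumours, a range that spans all controls. In MEKi/CD40 Ab against anti-CD40 Ab, 3 of 34 genes rose and 0 fell, where 11.6% of all probe sets were called and 4.42% were higher. These 3 are 8.82% of the 34, and 9.52% of the genes averaging above 5 were higher and 16.2% lower. Leaving out 1 array gave 0 (anti-CD40 Ab tumour 2, or MEKi/CD40 Ab tumour 1 or 2) to 5 (MEKi/CD40 Ab tumour 3) calls. Without MEKi/CD40 Ab tumour 3, 2811 of 45037 sets were higher and 3783 lower. The 3 genes were P4ha2 (2.29, adjusted p = 0.0182), Pfkp (0.53, adjusted p = 0.0456) and Hif1a (0.35, adjusted p = 0.0434). Car9 was 2.95 ± 0.82 higher with no overlap, but did not pass (adjusted p = 0.0744).

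In the MEKi and anti-CD40 Ab groups, most members had their highest value in 1 tumour and their lowest in another. MEKi tumour 3 had the highest value of its group for 28 of the 34 genes (82.4%), against 15.8% of the 10012 genes averaging above 5. MEKi tumour 4 had the lowest value for 24 (70.6% against 16.1%). Anti-CD40 Ab tumour 1 was highest for 28 (82.4% against 29.6%) and tumour 3 lowest for 25 (73.5% against 24.6%). MEKi/CD40 Ab tumour 3 was lowest for 24 (70.6% against 41.5%) and yet had the highest Hif1a, Pfkp and Pfkfb4 of its group. The highest values of that group fell mainly to tumours 2 (16 genes, 47.1% against 18.8%) and 1 (11 genes, 32.4% against 29%). Among controls the values also gathered in single tumours, above the shares of all genes. Control tumour 5 was highest for 17 of the 34 (50% against 17.7%). Control tumours 1 and 3 were lowest for 14 (41.2% against 25.6%) and 10 (29.4% against 11.9%). The genes are not independent of each other, and these counts describe single tumours.

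The number of 4 digits in the sample titles runs in a low and a high series, and its meaning is not stated. Control and MEKi each had 2 tumours in the low and 3 in the high series, while all tumours given anti-CD40 Ab were in the low one. Within the low series, the difference from control was 4.30 for Car9, 2.37 for P4ha2, 0.69 for Ankrd37 and 0.14 for Ddit4 with MEKi. With MEKi/CD40 Ab it was 3.18 for Car9, 2.46 for P4ha2, -1.02 for Ankrd37 and -0.94 for Ddit4. All these signs were those of the full groups, and with 2 controls none of the 34 genes passed in any comparison that could be fitted. With the series as a block, the 13 calls with MEKi became 12 and the 10 with MEKi/CD40 Ab became 6, in which Car9, P4ha2, Ero1a, Pfkp, Hif1a and Pfkfb4 were called and Ankrd37 and Ddit4 were not (adjusted p = 0.19 and 0.103).

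Of 29 other genes of the HIF pathway, 5 rose and 4 fell with MEKi/CD40 Ab, at a median of 0.06, and 5 rose and 2 fell with MEKi, at a median of 0.31. These shares, 31% and 24.1% called, lie near those of the genes averaging above 5, of which 12.3% were higher and 21.5% lower with MEKi/CD40 Ab and 10.5% and 8.99% with MEKi. The 4 with the smallest p were Siah2 (-0.46, adjusted p = 0.00222), a ligase that degrades prolyl hydroxylases, the transferrin receptor Tfrc (-1.82, adjusted p = 0.00248), the collagen cross-linking oxidase Lox (4.19, adjusted p = 0.00311) and Epas1, the alpha subunit of another HIF (1.58, adjusted p = 0.00807). With MEKi, Lox rose by 3.54 (adjusted p = 0.00462) and Tfrc fell by 0.86 (adjusted p = 0.0473). Siah2 was also the 1 gene of this list called in MEKi/CD40 Ab against MEKi (-0.50, adjusted p = 0.0224). Lox and Epas1 are also products of fibroblasts and of endothelial cells, and the part of such cells was not tested.

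Of 19 other isoforms and transporters of glycolysis, 2 rose and 0 fell with MEKi/CD40 Ab, Bpgm (1.06, adjusted p = 0.00863), which makes the allosteric effector of haemoglobin, and the lactate transporter Slc16a1 (0.53, adjusted p = 0.0188). Both also rose with MEKi, by 0.82 and 0.74, and there the hexokinase Hk3 fell (-0.77, adjusted p = 0.0213). The shares called, 10.5% and 15.8%, are below the 14.9% of all probe sets with MEKi/CD40 Ab and above the 7.83% with MEKi. Bpgm is abundant in red cell precursors, of whose 4 measured markers 2 rose and 1 fell with MEKi/CD40 Ab (summed level 6.85 to 7.88 against 6.69 to 6.82 in controls), and their part was not tested. Of 10 glycogen genes, 2 rose with MEKi/CD40 Ab (20%, where 12.3% of the genes averaging above 5 were higher) and 4 with MEKi (40%, where 10.5% were), among them the phosphorylase Pygl (1.74, adjusted p = 0.00607) with both agents and the branching enzyme Gbe1 (1.33, adjusted p = 0.00551) with MEKi.

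In pathways that draw carbon from glycolysis, the genes called with MEKi or MEKi/CD40 Ab against control were all lower. Of 6 pentose phosphate genes, 0 rose and 2 fell with MEKi/CD40 Ab (Rpe by 0.42 and Rpia by 0.32 on the log2 scale) and 3 fell with MEKi (Tkt by 0.57, Taldo1 by 0.49 and Pgd by 0.25). These are 33.3% and 50% of a short list, where 21.5% and 8.99% of the genes averaging above 5 were lower. Of 10 genes for pyruvate entry into mitochondria, 2 fell in both comparisons, which is 20% and with MEKi/CD40 Ab no more than the 21.5% of those genes. The 2 were Dlat, a core subunit of pyruvate dehydrogenase (-0.60 with MEKi/CD40 Ab and -0.29 with MEKi), and Dld, the shared dehydrogenase subunit (-0.50 and -0.23). All 9 proliferation markers fell with MEKi/CD40 Ab and 8 of 9 with MEKi in the same tumours, and their part in these differences was not tested.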

How the data were processed

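The authors hybridised RNA of 18 tumours to Affymetrix mouse genome arrays after oligo-dT primed labelling and deposited log2 values, normalized by RMA in Chipster, whose version the sources used here do not give. These deposited log2 values ran from 2.16 to 16.34, and 34.4% equalled the lowest, so the background step is uncertain and low values have no order. Of 45101 probe sets, all but 64 control sets, 45037 in all, entered limma 3.58.1 in R 4.3.3. Each pair of groups was fitted by itself, and the interaction in a model of the 2 agents over all 18 arrays. P-values were adjusted by Benjamini-Hochberg over all 45037 sets and called under 0.05. A gene was represented by its brightest set (_x_at sets avoided where another existed) with 1 symbol in GEO's platform annotation, 34945 sets having 1 symbol, 932 several and 9160 none. The fits were tested on simulated data with 200 changed sets.

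Genes are named where any comparison called them, with Car9, Ero1a, Pfkfb4, Vegfa, Slc2a1, Ldha, Aldoa, Pgk1, Hk2, Hif1a, Egln3 and Bnip3 always given. Members, lists and rules were chosen with earlier results of these data known. Groups came from the treatment labels. Replicates were separate tumours. The number of arrays limits the precision. Alternatives were cyclic loess scaling, a filter (above 5 on 4 arrays), a floor of 3, the mean of a gene's sets, a 4-group model, replicate and number blocks, tissue scores, and leaving out arrays.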

Additional observations from a re-analysis of the deposited data

Results flagged for a closer look

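Of 136 combinations of a gene and a group, 5 held 1 tumour that stood apart from the others of its group by Dixon's ratio, which flags about 1 in 20 by chance. Pfkl measured 10.39 in MEKi/CD40 Ab tumour 3, against 10.95 to 11.01 in the other tumours of the group. Aldoa measured 13.94 in control tumour 5, against 13.80 to 13.84. In anti-CD40 Ab tumour 1, Hif1a measured 13.42 (others 13.26 to 13.28) and Plod2 11.84 (others 10.82 to 10.95). Kdm3a measured 11.22 in MEKi tumour 3, against 10.93 to 10.95.

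For Ankrd37 the interaction of the 2 agents was -1.66 on the log2 scale (adjusted p = 0.0462 by limma). This call was lost in 16 of 18 fits without 1 array and in 7 of 11 alternatives, cyclic loess (adjusted p = 0.0553) and the number block (adjusted p = 0.0587) among them.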

How the results depend on the processing

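The counts of called genes depended on the processing, while no called difference changed sign under any alternative or left-out array. For MEKi/CD40 Ab against control (10 calls), the filter on low values gave 16, the mean of a gene's sets 10 of which 5 were lower, the number series as a block 6, the low series alone 0, leaving out the 3 highest adipocyte arrays 4, the adipocyte score as a covariate, which was added after seeing the data, 3, and leaving out 1 array 7 to 14. For MEKi against control (13 calls), the filter gave 24 (1 lower), the low series 0, the adipocyte score 26 and leaving out 1 array 7 to 22. For MEKi/CD40 Ab against MEKi (1 call), the filter gave 5, the mean of a gene's sets 4, the 4-group model 7, and the number block, the low series, leaving out the adipocyte or muscle arrays and either tissue score 0, and leaving out 1 array 0 to 2. For MEKi/CD40 Ab against anti-CD40 Ab (3 calls), the filter gave 10, the 4-group model 8, leaving out the adipocyte arrays or using their score 0, and leaving out 1 array 0 to 5. For the interaction (1 call), the filter and leaving out the adipocyte arrays each gave 3, cyclic loess, the number block, the low series, leaving out the muscle array and either tissue score 0, and leaving out 1 array 0 to 1. The cause of these changes was not tested, save that the filter tests fewer sets and the low series holds 2 controls. Leaving out the adipocyte arrays also removes MEKi/CD40 Ab tumours 2 and 4 and anti-CD40 Ab tumour 3, so the groups become smaller. The filter also called a larger part of all sets. For MEKi/CD40 Ab against control it called 3265 of 18729 sets higher and 5240 lower. For MEKi against control it called 2868 of 18653 higher and 3147 lower. Against MEKi, 963 of 18672 sets were higher with MEKi/CD40 Ab and 2015 lower, and against anti-CD40 Ab 2920 of 18663 and 4448. For the interaction, 716 of 19028 were higher and 1176 lower. Other settings changed these calls too. Against MEKi, the 4-group model called 1500 of 45037 sets higher and 2786 lower. The mean of a gene's sets called 230 of 18193 and 497 there. Against anti-CD40 Ab, the 4-group model called 3822 higher and 5174 lower. For MEKi/CD40 Ab against control, the number block called 1316 higher and 2544 lower, and the adipocyte score 1243 and 1987. For MEKi against control, the adipocyte score called 1725 higher and 2040 lower. The comparison of anti-CD40 Ab with control called 0 of the 34 genes under every alternative run.

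Replicate numbers are shared between groups, but of 25 pairs of arrays with the same number only 6 deviated together at a correlation over 0.1 (range -0.41 to 0.304), so the numbers were not taken to pair the tumours. A replicate block called 0 of the 34 genes in all 6 comparisons. Over all 45037 sets it called 0 in MEKi against control, anti-CD40 Ab against control and MEKi/CD40 Ab against MEKi. In MEKi/CD40 Ab against control it called 31 sets higher and 82 lower, and against anti-CD40 Ab 465 and 811. For the interaction it called 298 higher and 409 lower. Not run were the series settings for MEKi/CD40 Ab against anti-CD40 Ab, whose arrays are all in the low series, and the removal of adipocyte or muscle arrays where the groups compared hold none of them.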
